A study of Homo sapiens with 8 samples.

Results

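Some of the RNA recovered with eIF4G2 mapped to stretches of the genome where the authors' annotation places no gene. These stretches are described here. They come from RIP-seq, in which RNA bound to a protein is recovered with an antibody and sequenced, in IHCF cells, which are cardiac fibroblasts of human origin made to grow without limit. The authors deposited 1 list of regions for cells with a lentiviral vector for full-length eIF4G2 (the overexpression list) and 1 for cells with a scramble control vector (the control list). A region was taken as outside annotated genes if every row of the deposited table put it upstream or downstream of an Ensembl transcript and no row put it inside or across one. This gave 228 of 3210 regions: the overexpression list held 119 among its 1986, and the control list 109 among its 1224.

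Both conditions carried a lentiviral vector, and the antibody was against eIF4G2 in both. The 8 libraries fall into 4 groups of 2 biological replicates: total RNA and eIF4G2-bound RNA of scramble control cells, and the same of overexpressing cells. The promoter of the vectors is not given in the sources used here, and IHCF is a single line. The condition of a list is known here from the name of its table alone, and these names also carry MOV10, an RNA helicase that no sample label mentions. The lists hold positions, widths and distances in bp, with no count, score, p-value or value per replicate, so depth is unknown and no value below has a replicate check. The intervals in parentheses are 95% Wilson intervals (for medians, from order statistics). They cover counting error alone and treat neighbouring regions as independent. The identity of the cells could not be checked from regions. None of 16 marker genes of fibroblasts, cardiomyocytes and endothelial cells was nearest to a region outside genes. These regions lie on few chromosomes, and a marker gene on any other chromosome could not have been nearest.

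eIF4G2 (DAP5) is a scaffold protein of translation initiation that resembles eIF4G1 but lacks the site for the cap-binding protein, and its known RNA partners are mRNAs. An mRNA ends where its precursor is cut and polyadenylated. Many genes use several such sites, and RNA polymerase II transcribes on past the cut before it stops. A gene annotation fixes the outer ends of each gene, so whether RNA counts as outside depends on the ends that an annotation records.

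A RefSeq promoter window was reached by 2 of the 228 regions, both on chromosome 18 in the overexpression list. Those windows are shown because no other region outside genes reached one. Some other regions lay close before starts in the authors' annotation, for instance 6 bp before ENSG00000272777 in the control list. Each window runs from 250 bases before to 50 bases after a start in RefSeq (GRCh38.p14), 5′ to 3′ on the strand of the gene, with the bases covered by the region in capitals. GALNT1, which encodes an enzyme that starts mucin-type O-glycosylation, lies on the plus strand, with its window at chr18:35580672-35580971. VPS4B, which encodes an ATPase of the ESCRT membrane-cutting machinery, lies on the minus strand, with its window at chr18:63422427-63422726.
GALNT1: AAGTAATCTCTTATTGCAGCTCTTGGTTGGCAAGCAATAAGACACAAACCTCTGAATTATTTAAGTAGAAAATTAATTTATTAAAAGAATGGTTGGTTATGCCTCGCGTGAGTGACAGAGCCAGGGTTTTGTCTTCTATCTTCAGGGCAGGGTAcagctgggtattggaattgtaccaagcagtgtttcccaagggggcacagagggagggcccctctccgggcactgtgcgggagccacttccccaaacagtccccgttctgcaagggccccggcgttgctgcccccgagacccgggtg
VPS4B: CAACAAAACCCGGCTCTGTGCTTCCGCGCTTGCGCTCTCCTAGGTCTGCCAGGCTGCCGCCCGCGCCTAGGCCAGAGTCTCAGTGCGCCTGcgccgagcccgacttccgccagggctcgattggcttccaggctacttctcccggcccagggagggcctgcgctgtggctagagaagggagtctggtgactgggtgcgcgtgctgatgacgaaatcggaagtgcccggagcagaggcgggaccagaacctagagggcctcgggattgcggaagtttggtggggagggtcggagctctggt
The GALNT1 region (chr18:35580621-35580825) covered the first 154 bases of its window, of which 38.3% were G or C, against 51.7% in the whole window. The VPS4B region (chr18:63422636-63422850) covered the first 91 bases, of which 67.0% were G or C, against 66.0% in the window. Over all 35116 RefSeq windows the median was 58.7%. The TATA motif TATAAA, searched on both strands, was in neither window and in 11.5% of all windows. The GC box GGGCGG, also on both strands, was in the VPS4B window and not in the GALNT1 window, and 45.0% of all windows hold it. Neither region crossed the recorded start. No region overlapped a RefSeq miRNA hairpin.

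Most regions outside genes lay on the chromosomes that hold most regions of their list. In the control list 103 lay on chromosome 4 and 6 on chromosome 21. Chromosome 21 departs from the rest, as 6 of its 7 control regions were outside genes (85.7%, 48.7 to 97.4). In the overexpression list 97 lay on chromosome 18, 17 on chromosome 4, 3 on chromosome 10, 1 on chromosome 16 and 1 on a chromosome not described here. Chromosome 4 holds regions outside genes in both lists. There 103 of 1185 control regions were outside genes (8.69%, 7.22 to 10.4) and 17 of 491 overexpression regions (3.46%, 2.17 to 5.47). On chromosome 18 the share in the overexpression list was 97 of 1339 (7.24%, 5.97 to 8.76). On chromosome 10 it was 3 of 121 (2.48%, 0.847 to 7.04) there and 0 of 29 in the control list (0 to 11.7). With regions up to 1000 bp apart merged, and a merged stretch counted as outside if all its parts were, 35 of 614 control stretches on chromosome 4 (5.70%, 4.13 to 7.82) and 10 of 304 overexpression stretches (3.29%, 1.80 to 5.95) were outside, and these intervals overlap. The difference between the lists was thus smaller over merged stretches, and it could not be tested over replicates. The lists also differ in their narrowest regions on chromosome 4, 200 bp in the control and 400 bp in the overexpression list, in genes and outside. Shares above a common width were not taken.

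**Figure D1:**
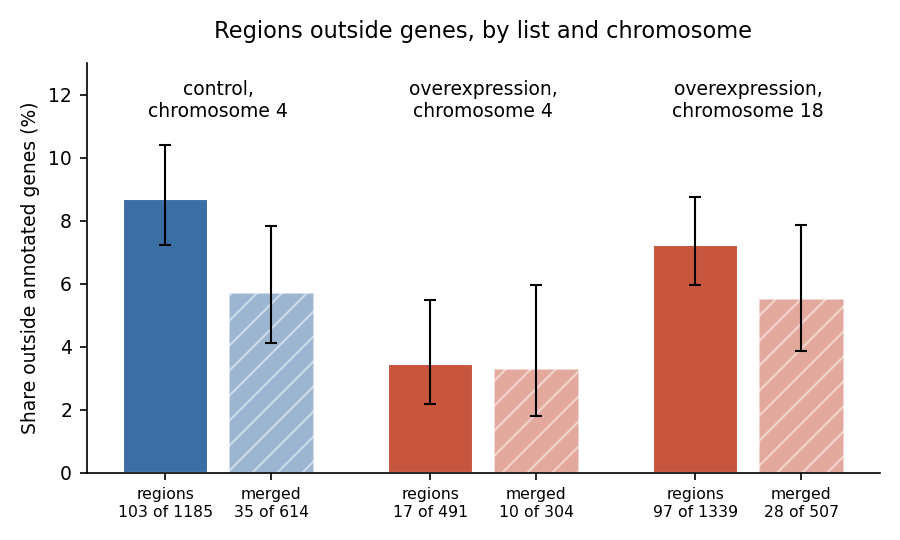
Share of regions outside annotated genes (%, y axis) for each list and chromosome (x axis), as listed (solid) and after merging regions up to 1000 bp apart (hatched); bars are shares and lines 95% Wilson intervals. As listed, the control share on chromosome 4 (8.69%) lies above the overexpression share there (3.46%), and after merging the intervals overlap. The narrowest regions on chromosome 4 are 200 bp in the control and 400 bp in the overexpression list.

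Regions outside genes were narrow in both lists. Their median width was 400 bp (400 to 430) in the control list, against 645 bp (600 to 660) for regions in or over a gene, and 290 bp (215 to 400) in the overexpression list, against 410 bp (410 to 430). Widths of 1000 bp or more were found in 14 of 109 control regions outside genes (12.8%) and 399 of 1115 in genes (35.8%). In the overexpression list the counts were 8 of 119 (6.72%) and 412 of 1867 (22.1%). On chromosome 18 the medians were close, 215 bp outside and 240 bp in genes, and on chromosome 4 of the overexpression list they were 605 and 762.5 bp. The regions follow lattices. On the chromosomes described here all end on a multiple of a fixed step, and begin 1 base after one: 200 or 215 bp on chromosome 4, 205 or 215 bp on chromosome 18 and 220 bp on chromosome 21. Whether the regions on the 2 lattices of a chromosome were called apart, for instance per replicate, and then joined in 1 list is not known here, and every count of regions or of a group depends on it. A width of 1 lattice step (at most 220 bp) was found for 52 of the 97 regions outside genes on chromosome 18 (53.6%, 43.7 to 63.2) and for 607 of 1242 in genes (48.9%, 46.1 to 51.7). On chromosome 4 of the control list the counts were 34 of 103 (33.0%, 24.7 to 42.6) and 238 of 1082 (22.0%, 19.6 to 24.6), whereas no overexpression region of that chromosome was so narrow, in genes or outside. A start on 1 lattice and an end on the other were found for 20 of 103 control regions outside genes on chromosome 4 (19.4%, 12.9 to 28.1) and 296 of 1082 in genes (27.4%, 24.8 to 30.1). On chromosome 18 the counts were 28 of 97 (28.9%) and 329 of 1242 (26.5%).

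**Figure D2:**
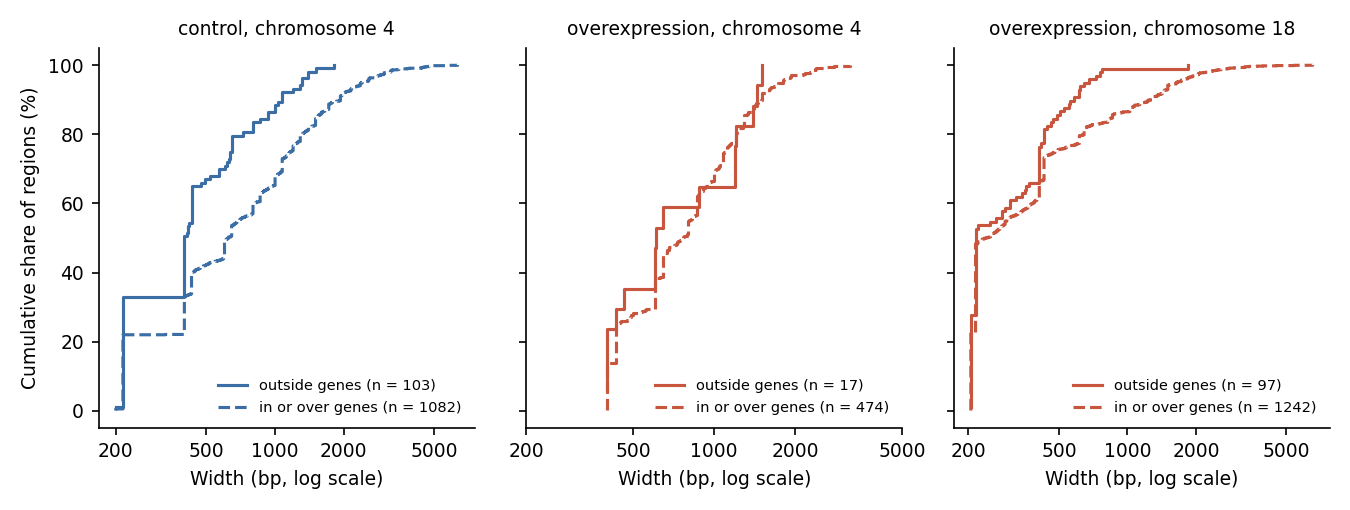
Cumulative share of regions (%, y axis) by width (bp, log scale, x axis) for the control list on chromosome 4 and the overexpression list on chromosomes 4 and 18; solid lines are regions outside genes and dashed lines regions in or over genes. The solid line rises earlier on chromosome 4 of the control list, with medians of 400 and 625 bp.

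The widest regions outside genes lay at named loci. In the overexpression list the widest was 1845 bp, 1046 bp before PMAIP1, which encodes the pro-apoptotic protein NOXA (chr18:59897106-59898950). A region of 1440 bp lay 3835 bp past a transcript of TNIP2, an inhibitor of NF-kappaB signalling. SLC10A7, a transporter-like membrane protein, had a region of 1190 bp that began 637 bp before its start. The region of 1200 bp listed upstream of ENSG00000249084 overlapped the RefSeq record of NEIL3, a DNA glycosylase gene. TMEM128, a membrane protein gene, had 875 bp at 378 bp before its start. A region of 770 bp lay 17788 bp before the cadherin gene CDH19. In the control list the widest was 1810 bp, 94 bp past the end of ANAPC4, a subunit of the anaphase-promoting complex (chr4:25418591-25420400). HMGB2, a chromatin protein, had a region of 1400 bp 569 bp before its start. FRG1, an RNA-binding protein gene near the end of the long arm of chromosome 4, had a region of 1400 bp that lay 2199 bp past its end. LARP7, which binds the 7SK RNA, had 1200 bp at 1809 bp past its end. A region of 1315 bp lay 23248 bp before TEC, a tyrosine kinase gene of blood cells. Another of 1290 bp lay 1655 bp past LINC02514, over the RefSeq record LOC339975.

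By the rows of the deposited tables, the downstream side held more than the upstream side in both lists by number of regions. It held 64 of 109 control regions (58.7%, 49.3 to 67.5) and 65 of 119 overexpression regions (54.6%, 45.7 to 63.3), and both intervals include an even split. By covered bp the downstream share was 61.8% in the control and 48.6% in the overexpression list, so the direction turned in the latter. The median listed distance was 3449 bp (2394 to 6551) for control regions and 2971 bp (2263 to 3950) for overexpression regions. Of the control regions 81 of 109 (74.3%) and of the overexpression regions 103 of 119 (86.6%) lay within 10 kb of the listed transcript. Downstream and within 5 kb were 37 control (33.9%) and 36 overexpression regions (30.3%).

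The listed transcript was often not the one that ends nearest. For 45 of 109 control regions (41.3%) and 53 of 119 overexpression regions (44.5%), another transcript named in the same tables had an end closer to the region. In contrast, another listed transcript had its start closer to the first base of the region for 1 control and 1 overexpression region. The rows thus name the gene by the nearest start, and a long gene that ends just before a region can be passed over. Measured to the closest end of any listed transcript, 73 of 109 control (67.0%) and 76 of 119 overexpression regions (63.9%) were downstream, and the median distances were 2199 and 1976 bp. This way of choosing the gene was added after the data were seen.

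The nearest end of a protein-coding gene in RefSeq was more often a 3′ than a 5′ end in both lists, though the control interval over all distances includes an even split. Regions that overlapped no coding gene record numbered 106 (control) and 114 (overexpression). The nearest coding end was a 3′ end for 60 control regions (56.6%, 47.1 to 65.6) and 79 overexpression regions (69.3%, 60.3 to 77.0), and a 5′ end for 43 and 34. For the remaining 3 and 1 the strand of the gene was not known here. Within 5 kb of a coding end, 43 of 60 control regions on chromosome 4 were nearest to a 3′ end (71.7%, 59.2 to 81.5), as were 38 of 58 overexpression regions on chromosome 18 (65.5%, 52.7 to 76.4). Of the bases outside coding genes and within 5 kb of a coding end, 49.5% on chromosome 4 and 50.1% on chromosome 18 are nearest to a 3′ end. Within 1 kb, 20 control regions were at 3′ ends and 7 at 5′ ends, against 26 and 11 overexpression regions. At any distance, the coding gene at the nearest 3′ end had a region of its own in the same list for 54 of 60 control (90.0%, 79.9 to 95.3) and 73 of 79 overexpression regions (92.4%, 84.4 to 96.5). At the nearest 5′ end it was 34 of 43 (79.1%, 64.8 to 88.6) and 28 of 34 (82.4%, 66.5 to 91.7), and the intervals of the ends overlap. The share of all coding genes with a region of their own was not taken. Whether these shares are higher than for other genes was thus not tested.

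**Figure D3:**
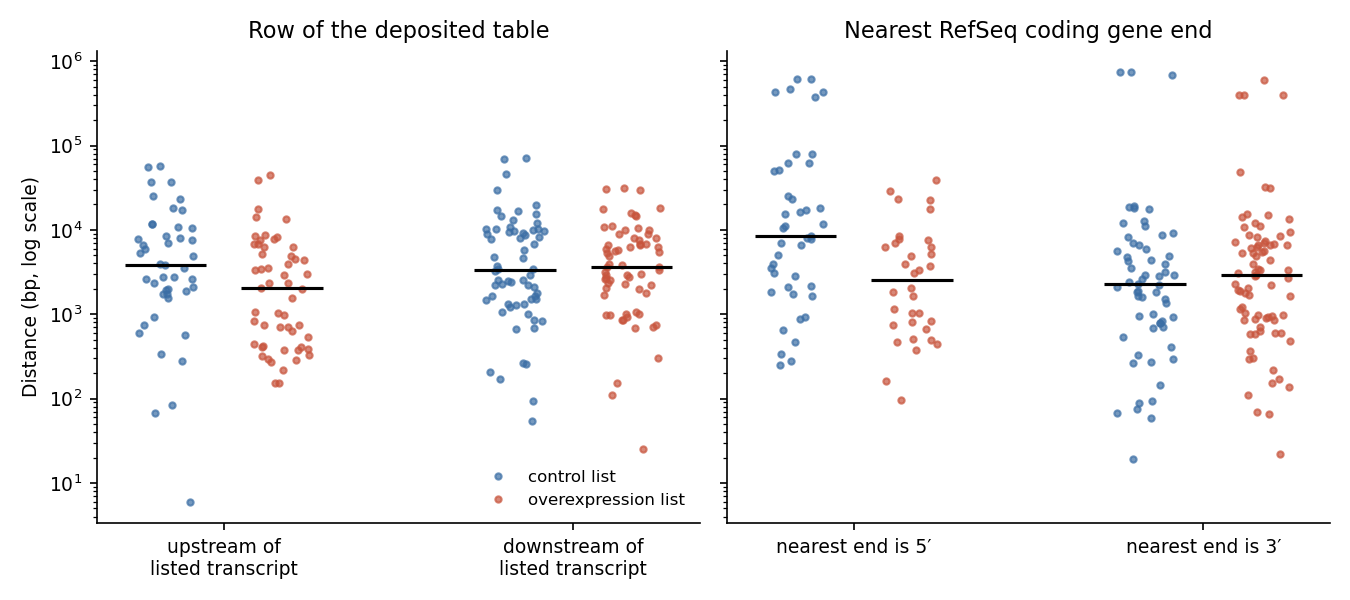
Distance of each region outside genes (bp, log scale, y axis) in the control (blue) and overexpression (red) lists; the left panel uses the row of the deposited table and the right panel the nearest RefSeq coding gene end, split by side on the x axis (genes of known strand). Points are regions (shifted sideways to be seen) and horizontal lines medians, which for 3′ ends are 2255.5 bp (control) and 2942 bp (overexpression).

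Single regions lay close behind several coding genes, picked after their values were seen. The distances in this paragraph are from RefSeq ends. The listed distances were longer for some, for instance 2541 bp at BBS12 and 1512 bp at ANXA5. Control regions lay 67 bp past BBS12, a ciliary chaperonin gene, 146 bp past the annexin gene ANXA5, 294 bp past SEC31A, a COPII coat gene, and 332 bp past CDKN2AIP. Overexpression regions lay 295 bp past the centrosome gene CEP192, 305 bp past ARHGAP10, 371 bp past NARS1, an asparaginyl-tRNA synthetase gene, and 920 bp past IMPACT.

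Several regions listed upstream of a gene, or far downstream of a small RNA, sat directly behind a coding gene; the genes named in this paragraph as lying behind were found from RefSeq after the values were seen. The control region listed 1294 bp downstream of ATP5ME, a subunit of ATP synthase, began 19 bp past the end of PDE6B. A control region of 430 bp listed upstream of the opsin gene RRH began 59 bp past the end of GAR1, a protein of H/ACA ribonucleoproteins. The region listed upstream of the protease gene HGFAC lay 88 bp past the end of RGS12. That listed 11830 bp upstream of the pseudogene ZBTB12BP lay 409 bp past UBE2K, a ubiquitin-conjugating enzyme gene, and that listed 29492 bp downstream of a U2 copy lay 927 bp past PI4K2B. In the overexpression list, a region listed upstream of LINC01909 began 172 bp past SOCS6, a suppressor of cytokine signalling. On chromosome 16 the region listed upstream of ENSG00000280211 began 139 bp past RNF40. The MSX1 region, on chromosome 4, was listed at 973 bp and lay 65 bp past the longer RefSeq end, and the DHTKD1 region, on chromosome 10, was listed at 2932 bp and lay 70 bp past it. In total 18 overexpression and 11 control regions were listed as upstream while their nearest coding end was a 3′ end.

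Groups of regions shared a gap between neighbouring coding genes. Gaps with 3 or more held 66 of the 114 overexpression regions and 44 of the 106 control regions. The largest group lay between NDC80, a kinetochore protein gene, and SMCHD1 on chromosome 18: 10 overexpression regions between 2617236 and 2632245, which covered 3120 bp of a span of 15010 bp. The table names a Y RNA copy for all 10, 1 as upstream and 9 as downstream, at 750 to 10830 bp. In RefSeq the first of them began 601 bp past the end of NDC80 and the last 15396 bp past it, while the start of SMCHD1 was at least 23481 bp away. NDC80 itself carried 24 overexpression regions. Within the span of the group also lay an overexpression region in or over a gene, which is not counted among the 10. It ended 616 bp before the first of the 9 listed as downstream.

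Behind SNRPD1, a core protein of splicing ribonucleoproteins, 6 overexpression regions lay in the gap of 17382 bp to ABHD3, whose 3′ end faces it, and covered 2990 bp of it. The table gives 3 to SNRPD1 and 3 to ABHD3. The genes carried 10 and 14 regions. PSMG2, a proteasome assembly chaperone gene with 22 regions, was followed by 5 of 205 to 430 bp, the first 111 bp and the last 6561 bp past its end. HAUS1, an augmin subunit gene of the mitotic spindle, was followed by 4 of 205 to 215 bp, at 154, 994, 6304 and 6799 bp. Behind SEC11C, a signal peptidase subunit gene, 3 regions lay at 2074, 3149 and 5604 bp. Behind TRAPPC8, a subunit of a vesicle tethering complex, 3 were listed at 2211, 2751 and 3646 bp. From the RefSeq end of TRAPPC8 they lay 487 to 1922 bp away. The 3 regions listed upstream of ENSG00000266578, at 1070 to 2360 bp, began at least 3085 bp past the end of MYL12B, a myosin regulatory light chain gene. The 3 listed upstream of ENSG00000263424, at 704, 8199 and 8699 bp, lay 702 to 8697 bp past the end of DSEL. Another Y RNA copy was listed for 2 regions, at 15128 and 15863 bp, which lay 13345 and 14080 bp past RBBP8, a DNA end resection gene.

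The largest control groups on chromosome 4 lay behind FRG1 and before OCIAD2. Behind FRG1 were 6 regions with 4055 bp in a span of 8600 bp (chr4:189963466-189972065). The table gives 3 to FRG1, at 264, 1339 and 2199 bp, and 3 to the pseudogene MLLT10P2. Before the start of OCIAD2, a protein of endosomes and mitochondria, were 6 regions, of which the table gives 4 to OCIAD2, at 3844 to 10864 bp, and 2 to a U6 copy. RPL34, a protein of the large ribosomal subunit, was followed by 3 regions of 215 to 430 bp, listed at 9621 to 10881 bp and at 4317 bp or more from the RefSeq end. TBC1D1, a Rab GTPase-activating protein gene, was followed by 3 listed at 3752, 7837 and 19952 bp, and at 1828, 5913 and 18028 bp from the RefSeq end. The transcriptional repressor gene MXD4 had 3 before its start, at 337, 3562 and 3892 bp, with the 3′ end of ZFYVE28 on their other side. The mitochondrial co-chaperone gene GRPEL1 had 3 before its start, at 277, 922 and 1737 bp. TNIP2 had 3 before its start, at 7054 to 8059 bp, and these overlapped the RefSeq lncRNA LOC102723763. The 3 listed at the pseudogene SETP20 lay at least 2895 bp past SEC24B, a COPII coat gene.

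**Figure D4:**
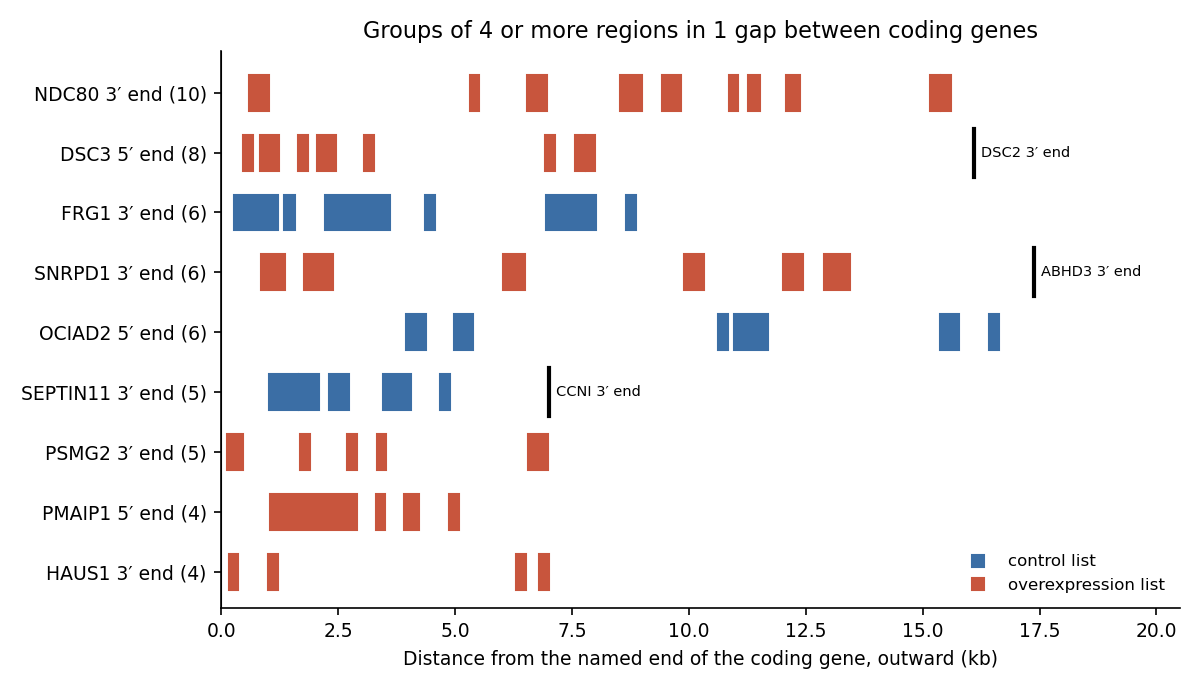
Position of each region in 9 gaps between coding genes that hold 4 or more regions outside genes of 1 list within 20 kb; the x axis is the distance in kb outward from the end of the coding gene named at the left, boxes are regions drawn to scale (blue control, red overexpression), black bars mark the facing end of the next coding gene, and counts are in parentheses. The 10 regions behind NDC80 reach from 601 to over 15396 bp past its end.

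Between the lists, 11 of 109 control and 8 of 119 overexpression regions outside genes shared at least 1 bp with a region of the other list, all on chromosome 4. The 97 overexpression regions on chromosome 18 could not overlap, because all regions listed on that chromosome come from the overexpression list. Likewise the 6 control regions on chromosome 21 had no listed counterpart. Whether the loci on these chromosomes are specific to 1 condition was thus not tested. On chromosome 4, 8 of 17 overexpression regions outside genes shared bases (47.1%, 26.2 to 69.0), against 311 of 474 in genes (65.6%, 61.2 to 69.7). Of the control regions it was 11 of 103 (10.7%, 6.07 to 18.1), against 291 of 1082 in genes (26.9%, 24.3 to 29.6). The control list is the longer on this chromosome, so these shares differ by direction. The median distance to the nearest region of the other list was 461 bp for the 17 overexpression regions and 20601 bp for the 103 control regions.

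Only 6 regions of each list overlapped a region that was outside genes in the other list too, and they lay at TACC3 and SEPTIN11. TACC3, a microtubule-binding protein gene of the mitotic spindle, was followed by 3 in each list. The control regions were 1025, 1315 and 645 bp wide at 2925, 4810 and 6745 bp past the listed transcript, and the overexpression regions 1195, 430 and 400 bp at 2325, 5455 and 6725 bp. Each overlapped its counterpart, by 595, 430 and 380 bp. In the control list a region in TACC3 of 5805 bp ran past the end of the gene and reached the first of the overexpression regions. SEPTIN11, a filament-forming GTPase of the cytoskeleton, had 7 control and 3 overexpression regions. Before its start, the regions of 1505 and 935 bp in the control list overlapped overexpression regions of 1390 and 1505 bp, and the first pair ended at the same base, 76941190. Both pairs lay over the RefSeq lncRNA LOC105377294. Past its end, 5 control regions lay at 1014 to 4669 bp and 1 overexpression region of 400 bp lay at 849 bp, overlapping the first control region by 235 bp. The 3′ end of CCNI faces that of SEPTIN11 across this gap of 7002 bp. The control regions of 600 and 215 bp were nearer to CCNI, at 2955 and 2120 bp, than to SEPTIN11, at 3447 and 4667 bp.

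**Figure D5:**
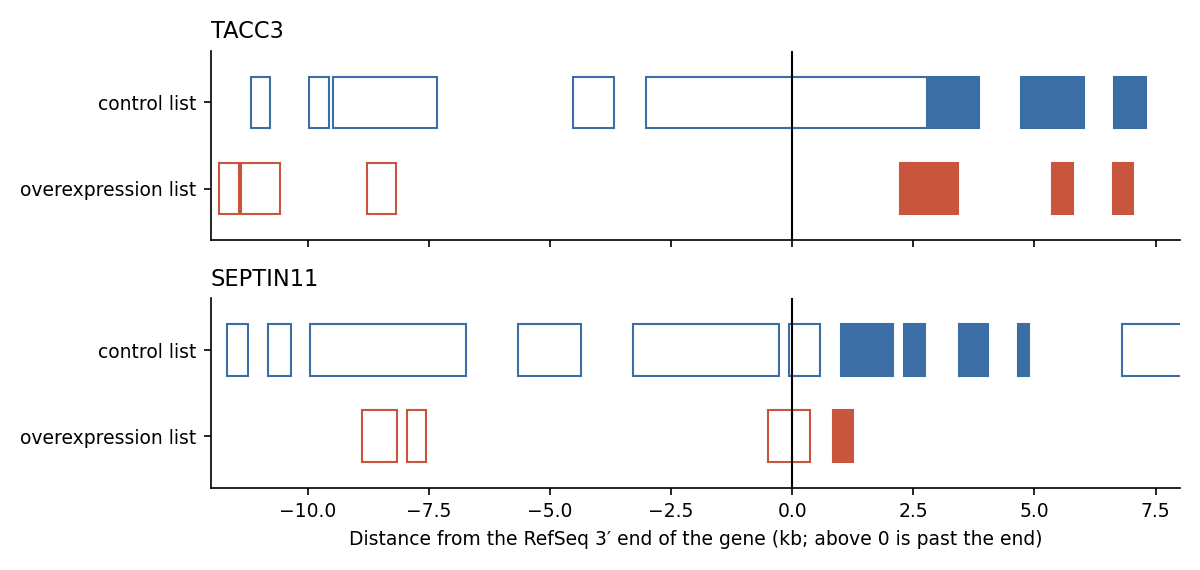
Regions of each list around the RefSeq 3′ ends of TACC3 and SEPTIN11; the x axis is the distance from that end in kb, filled boxes are regions outside genes and open boxes regions in or over a gene. Past TACC3 each list has 3 filled boxes that overlap in pairs, and past SEPTIN11 the control list has 5 (the first 2 nearly touch) and the overexpression list 1. The 3′ end of CCNI, which faces that of SEPTIN11 across 7002 bp, is not marked.

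The other overlaps paired a region outside genes with one that touched a gene in the other list. The MSX1 region of the overexpression list (400 bp) shared 160 bp with a control region of 1290 bp over the end of MSX1, a homeobox transcription factor gene. The control region listed at HGFAC lay wholly in an overexpression region of 1045 bp over the end of RGS12, and that listed at ZBTB12BP shared 600 bp with an overexpression region of 1600 bp over the end of UBE2K. Both control regions at the pseudogene CICP16 shared bases (215 and 800 bp) with overexpression regions over annotated transcripts. The control region 83 bp before FAM13A-AS1 (415 bp) lay wholly in an overexpression region of 1215 bp that ended at the same base. The overexpression region 320 bp before ENSG00000278974 (600 bp) shared 450 bp with a control region of 2050 bp that held this whole gene. At these genes a stretch of sequence thus counted as outside in 1 list and as part of a genic region in the other.

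Regions before coding gene starts were fewer. DSC3, a desmosomal cadherin gene, had 8 overexpression regions of 205 to 410 bp before its start, at 391 to 7716 bp (chr18:31043206-31050735). They lay in the gap to DSC2, whose 3′ end faces it at 8105 bp from the last. DSC3 carried 6 regions and DSC2 none, and 4 of the 8 overlapped the RefSeq lncRNA LOC124904345. PMAIP1 had 4 before its start, at 1046 to 4866 bp, and 1 at 2548 bp past the listed transcript. By the listed rows, SEH1L, a nucleoporin gene, had 2, at 153 and 973 bp, GALNT1 2, at 292 and 702 bp, and VPS4B 2, at 153 and 828 bp. The N-cadherin gene CDH2, an adhesion gene of myofibroblasts, had 1 of 205 bp at 330 bp (chr18:28178276-28178480). In the control list CENPE, a kinetochore motor gene, had 2 of 400 bp, at 1756 and 2756 bp.

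Other regions lay at noncoding genes or far from the listed gene. On chromosome 10 the overexpression list had, besides the DHTKD1 region, 1 of 205 bp 538 bp before the pseudogene RPL13AP5 and 1 of 205 bp 3639 bp past the listed end of TIAL1, an RNA-binding protein gene. Another TIAL1 transcript in the tables ended 222 bp from this last region, and the RefSeq end of TIAL1 lay 1885 bp from it. On chromosome 21 the 6 control regions, of 220 to 880 bp, were listed downstream of a ribosomal RNA copy named 5_8S_rRNA (3 regions, at 2528, 3408 and 45868 bp), of the pseudogene RPSAP68 (2, at 16717 and 17157 bp) and of ENSG00000279615 (1, at 9678 bp). They lie between 8259461 and 8670860, a stretch in which RefSeq also has copies of the ribosomal RNA genes, and the first 2 overlapped the RefSeq ribosomal RNA pseudogene LOC110467529. Copies of a repeated gene can share reads, so the place of these 6 is uncertain. The 1 other region of chromosome 21 in the control list was in or over a gene. By the listed row, the farthest regions of the control list lay 70007 and 70662 bp from ENSG00000251445, though SH3RF1, whose transcripts are in the same tables, ended 12669 and 12024 bp from them, and 55961 and 56611 bp from ENSG00000239532. Those of the overexpression list lay 44984 bp from RNF165 (and 14554 bp past C18orf25, also in the tables), 39387 bp from INO80C and 29754 to 31044 bp from ENSG00000265380, the last 3 over the RefSeq lncRNA LOC105372190.

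RefSeq has genes at some of these places. Of the control regions 24 of 109 (22.0%, 15.3 to 30.7) overlapped a RefSeq gene record, 17 of them a lncRNA and no coding gene, 4 a pseudogene and 3 a coding gene (SLC49A3, CASP6 and SETD7). Of the overexpression regions 15 of 119 (12.6%, 7.79 to 19.8) did, 10 of them over a lncRNA and no coding gene and 5 over a coding gene: 2 in EPG5, an autophagy gene that the table passes over for SIGLEC15, 2 in CTDP1 and 1 in NEIL3. No region overlapped any transcript that the tables list for another region. That left 85 control and 104 overexpression regions in no RefSeq gene record. By the listed distance, regions close to the limit of the rule were few. In the overexpression list 1 region lay outside by at most 50 bp (NAPG, 25 bp past its end) and 7 reached over a gene by at most 50 bp. In the control list 1 lay outside by 6 bp, at ENSG00000272777, and none reached over a gene by so little. By that distance the next nearest control regions lay 55 bp past LINC01182 and 67 bp before LINC02481. By the closest end of any listed transcript, other control regions lay nearer than 67 bp. They were 19 bp past PDE6B, 56 bp past GAR1 and 64 bp past BBS12.

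Few genes of the lists for fibrosis, translation and growth were listed for a region, at shares whose intervals include that of all coding genes. For control regions it was 3 of the 30 list genes on chromosome 4 (10.0%, 3.46 to 25.6), against 34 of all 770 coding genes there (4.42%). For overexpression regions it was 2 of 44 on chromosomes 4 and 18 (4.55%, 1.26 to 15.1), against 34 of 1040 (3.27%). Of the matrix and crosslinking genes, EMILIN2, an elastin-associated glycoprotein gene, had 1 overexpression region of 445 bp at 4476 bp upstream, and FRAS1, a basement membrane protein gene, had 2 control regions, at 17268 and 17923 bp upstream. The contractility list gave CDH2, the list of ribosomal proteins RPL34, and the cell cycle list CENPE. The TGF-beta and BMP, translation factor and growth factor lists gave none; on these chromosomes they have 7, 4 and 15 genes. Counted instead as the coding gene on either side of a region, at any distance, NDC80 (cell cycle), CCBE1 and VEGFC (growth factors) and TGIF1 (TGF-beta) were added in the overexpression list, and FGF2 (growth factors) and CPEB2 (translation) in the control list. NDC80 lay 601 bp from its nearest region, CCBE1 70524 bp, TGIF1 128959 bp and VEGFC 577479 bp. For FGF2 it was 81462 bp and for CPEB2 998456 bp. The share of all coding genes on either side of a region was not taken.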

How the data were processed

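Total and eIF4G2-bound RNA of IHCF cells was sequenced in 2 biological replicates per condition. Per the submitters' processing notes, reads were handled with bcl2fastq 2.19.0, Trimmomatic 0.36 and HISAT2 2.1.0 on GRCh38; how regions were called, at which threshold and from which replicates is not given in the sources used here. Deposited tables repeat each region for every Ensembl transcript it touches or lies nearest to. The values used are the deposited 1-based positions, widths and distances in bp, with no value per sample, so no test was made. Distances to genes were taken from the row with the smallest one. RefSeq (GRCh38.p14) records gave gene ends, and strand came from its promoter table or the authors' rows (947 of 1040 coding genes of chromosomes 4 and 18). Of 91 listed gene names 88 were found in RefSeq, and 4391 of 4394 listed transcripts overlapped the RefSeq span of their gene. Members and gene lists were chosen with earlier results of these data known. Named were, per list, the genes at the 10 widest, 5 nearest and 5 farthest regions, at regions on chromosomes with at most 5 (1 left out), at regions shared between lists, at 3 or more regions, and members of the gene lists; others were named after their values were seen. Overlap and distance code was tested on simulated data: 200 of 200 planted regions were read back. Python 3.11.15, pandas 2.3.3, numpy 2.4.6, scipy 1.17.1 and matplotlib 3.10.9 were used. The regions of 1 gap between coding genes are counted but not reported here.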

Additional observations from a re-analysis of the deposited data

How the results depend on the processing

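Of 32 alternatives, 15 left a value inside its interval, or a count within 1.5 times, and 17 moved it. Merging regions up to 1000 bp apart left 39 control and 39 overexpression stretches outside genes, with median widths of 1075 and 940 bp. A minimum width of 400 bp left 72 and 52 regions, and chromosome 4 alone left 17 in the overexpression list. RefSeq records in place of the authors' rows gave 122 and 145, of which 85 and 104 were outside by both. The downstream share within 1 kb was 9.17% in the control and 10.9% in the overexpression list, and within 10 kb 44.0% and 45.4%. By the closest listed transcript end the overexpression share downstream was 63.9%, and by RefSeq coding ends of known strand 69.9%; the control shares were 67.0% and 58.3%. By covered bp the shares were 61.8% (control) and 48.6% (overexpression). By the closest listed end the median distance was 2199 bp in the control and 1976 bp in the overexpression list. Overlap of at least 50% of both regions left 4 control and 3 overexpression regions shared. The merged, minimum-width and chromosome 4 counts are lower because fewer or joined regions were counted; for the other changes the cause was not tested. No paired analysis was possible because the lists hold no value per replicate, and for the same reason no replicate could be left out. Depth is unknown, and whether a list joins several calls is not known here.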
